A study of Mus musculus with 48 samples.

Results

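The epidermal keratin genes described here are *Krt5*, *Krt14*, *Krt15*, *Krt1*, *Krt10*, *Krt17*, *Krt6a*, *Krt16*, *Krt77*, and *Krt79*, which were chosen by name and make up 10 of the 34586 genes in the count table. Their unique molecular identifiers (UMIs), each standing for 1 captured transcript, were read in single cells of male DBA1/J mice aged 8 to 12 weeks, with or without collagen-induced arthritis (CIA). CIA mice received bovine collagen II in complete Freund's adjuvant through the skin near the tail base and a booster with incomplete adjuvant on day 20, and control mice, called healthy here, received saline injections in the same way. Cells were profiled with Seq-Well, in which a bead with oligo-dT captures the polyadenylated RNA of a cell in a small well. Skin came from 4 healthy mice (H3, H4, H6, and H7), 3 CIA mice with mild arthritis (S5, S6, and S8, total arthritis score of 2 to 5), and 3 with severe arthritis (S1, S2, and S3, score 8). Joint came from healthy mice H3, H4, and H7, mild mice S5, S6, and S8, and severe mice S1 and S3. Sample names also carry a prefix, 2CIA for H3 and the severe mice and CIA for the others, so severity and prefix cannot be told apart among CIA mice. The site on the body from which skin was taken is not given, so its distance from the injection is unknown. Each sample is 1 animal, and the mouse is the replicate throughout.

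Keratins are the intermediate filament proteins of epithelial cells, and a filament needs a type I and a type II keratin in pairs. In epidermis, dividing basal keratinocytes carry *Krt5* with *Krt14* and, mostly in the hair follicle, *Krt15*. Cells that leave the basal layer switch to *Krt1* with *Krt10*, wounded or activated epidermis and parts of the follicle carry *Krt6a*, *Krt16*, and *Krt17*, *Krt77* is a type II keratin of suprabasal and sweat duct cells, and *Krt79* marks the upper follicle and sebaceous duct. The type I members *Krt10*, *Krt14*, *Krt15*, *Krt16*, and *Krt17* lie on chromosome 11 of GRCm38, between 99385254 (*Krt10*) and 100261029 (*Krt17*), and the type II members *Krt1*, *Krt5*, *Krt6a*, *Krt77*, and *Krt79* lie on chromosome 15, between 101689910 (*Krt6a*) and 101940324 (*Krt79*), all on the minus strand.

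Members of a type are near copies in parts of their coding sequence, which bears on how well their UMIs can be told apart. The stretch below is shown because it is the longest run of bases that *Krt14* and *Krt17* share, at 71 bases of exon 6, and because it ends within 319 bases of the transcript end in *Krt14*, *Krt16*, and *Krt17*, the end that oligo-dT captures. It is given 5′ to 3′ on the coding strand from the GENCODE vM21 transcripts (GRCm38), and capitals mark bases that differ from *Krt14*.
Krt14, chr11:100204114-100204184: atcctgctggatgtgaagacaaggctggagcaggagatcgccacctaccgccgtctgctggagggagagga
Krt17, chr11:100257439-100257509: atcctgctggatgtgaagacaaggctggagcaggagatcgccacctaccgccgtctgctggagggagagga
Krt16, chr11:100246616-100246686: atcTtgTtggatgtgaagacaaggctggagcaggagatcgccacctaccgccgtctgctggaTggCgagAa
Krt15, chr11:100132997-100133067: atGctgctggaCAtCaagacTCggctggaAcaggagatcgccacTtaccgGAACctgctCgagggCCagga
Krt10, chr11:99386534-99386604: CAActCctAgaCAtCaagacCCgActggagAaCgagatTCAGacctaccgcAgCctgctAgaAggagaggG
*Krt16* differed from *Krt14* at 5 of the 71 bases, *Krt15* at 15, and *Krt10* at 22. Elsewhere *Krt14* and *Krt16* shared a run of 134 coding bases, *Krt5* and *Krt6a* 140, and *Krt6a* and its copy *Krt6b* 280. In the last 400 bases of the transcripts, the longest shared run was 71 bases for *Krt14* and *Krt17*, 55 for *Krt14* and *Krt16* and for *Krt16* and *Krt17*, 22 for *Krt6a* and *Krt6b*, and 9 for *Krt5* and *Krt6a*. How reads that match several keratins were counted is not given beyond the use of primary alignments, so the split of UMIs among *Krt14*, *Krt16*, and *Krt17* is less certain than that of *Krt5*, *Krt10*, or *Krt79*. *Krt6b* itself had 6 UMIs in the whole table.

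The members had 3764 UMIs in 48 samples, and most lay in skin cells that the deposited annotation calls Basal III cells, its name for keratinocytes. Of these UMIs, 67.1% were in skin Basal III cells, 3.19% in skin fibroblasts, 10.2% in skin cells without a label, 12.4% in the few Basal III cells of joint, 2.74% in other cells of joint, and 4.01% in lung, muscle, and spleen. Skin cells of all labels other than Basal III, fibroblasts included, held 3.61%. The share in skin Basal III cells was lowest for *Krt16* (61.7% of 120 UMIs) and *Krt10* (61.9% of 789) and highest for *Krt77* (83.8% of 80). Every *Krt77* UMI came from skin. *Krt16* had the largest share in labelled skin cells other than Basal III (13.3%, 16 UMIs), but 11 of these UMIs lay in a single cell of S2 labelled fibroblast. *Krt10* and *Krt79* had the largest shares in lung, muscle, and spleen (11.0% and 15.6%).

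**Figure D1:**
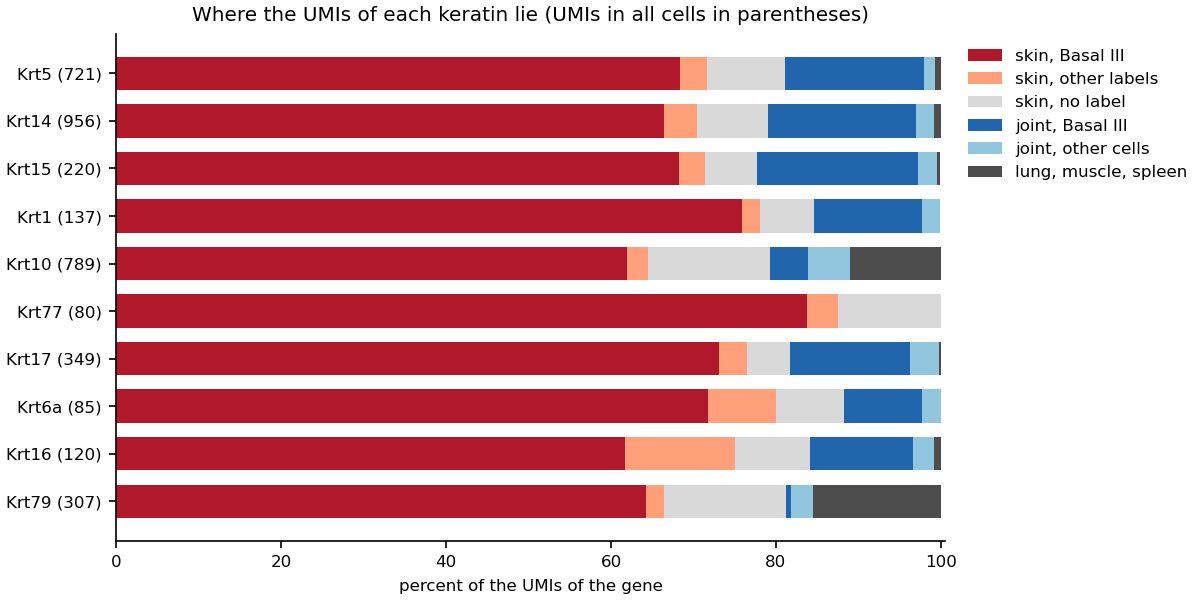
Percent of each keratin's UMIs (x axis) by organ and cell label, with the total UMIs of the gene in brackets on the y axis. Skin Basal III cells held between 61.7% (*Krt16*) and 83.8% (*Krt77*) of the UMIs, and the other organs were visible mainly for *Krt10* and *Krt79*.

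The study's 6 Basal III markers were *Krt14*, *Krt5*, *Mt2*, *BC100530*, *Fosl1*, and *Ptgs2*, and all 6 were found in the 711 skin Basal III cells. *Krt14* was seen in 44.9% and *Krt5* in 33.9% of these cells, but *BC100530* in 12.8%. All 6 were also detected in skin fibroblasts, with *Mt2* in 44.4% of them against 53.9% of Basal III cells and *Ptgs2* in 10.5% against 9.7%. Since the 6 markers helped to name the Basal III cells, finding them there is no check of the label. Their level there against other labels is a description and was not tested. Keratinocyte genes outside the marker list were abundant, with 4440 UMIs of *Lgals7* (galectin-7), 2417 of *Krtdap* (a keratinocyte differentiation protein), and 1805 of *Sfn* (stratifin). *Mgst1* and *Scd1*, genes of lipid and redox metabolism that are high in sebaceous cells, had 2191 and 1101 UMIs, so the label also took in cells with such a profile. All 8 fibroblast markers were detected in these cells, with a summed level of 494 to 699 CPM (UMIs per 1000000 UMIs of the same cells) in healthy and 311 to 1298 in CIA mice, against 17135 CPM in skin fibroblasts. Macrophage markers were detected for 8 of 10 genes (50.6 to 479 CPM in healthy and 92.2 to 381 in CIA mice), with *Cd68* and *Gatm* at 0. Granulocyte markers were detected for 3 of 4 (0 to 10.1 and 0 to 381 CPM), with *Ngp* at 0. Langerhans cell markers (4 of 4, 326 to 576 and 325 to 829 CPM), endothelial markers (3 of 3, 20.3 to 68.0 and 27.7 to 270 CPM), and melanocyte markers (4 of 5, 0 to 82.3 and 0 to 387 CPM, *Tyrp1* at 0) were also detected. A single gene carried most of each of these sums. *Epcam* held 330 of the 413 Langerhans list UMIs, and *Cd207* had 3. *Fabp4* held 42 of the 47 endothelial UMIs, with *Cdh5* at 2 and *Pecam1* at 3. *Dct* held 34 of the 44 melanocyte UMIs. The part of other cell types in the values below was not tested. A mouse gave 20 to 132 skin Basal III cells and 18486 to 128611 UMIs in them, and H4 (24314 UMIs) and S6 (18486) were the shallowest. Of 13164 barcodes, 59 occurred in several libraries, but none of them was a skin Basal III cell.

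Levels of single genes are also given as CPM. A UMI stands for a molecule caught by its 3′ end, so CPM were not divided by transcript length. Pooled over the 10 mice, skin Basal III cells had 845 CPM of *Krt14* (95% counting interval 781 to 913), 656 of *Krt5* (599 to 717), and 649 of *Krt10* (593 to 710). *Krt5* and *Krt10* did not differ beyond counting error, and *Krt14* stood above both. Next came *Krt17* (339 CPM, 299 to 384), *Krt79* (262, 227 to 301), *Krt15* (200, 169 to 234), and *Krt1* (138, 113 to 168), and the intervals of neighbours in this order touched except for *Krt15* and *Krt1*. *Krt16* (98.5 CPM, 77.3 to 124), *Krt77* (89.2), and *Krt6a* (81.2) were lowest and did not differ beyond counting error. These intervals cover counting only, and the spread between mice below is wider.

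**Figure D2:**
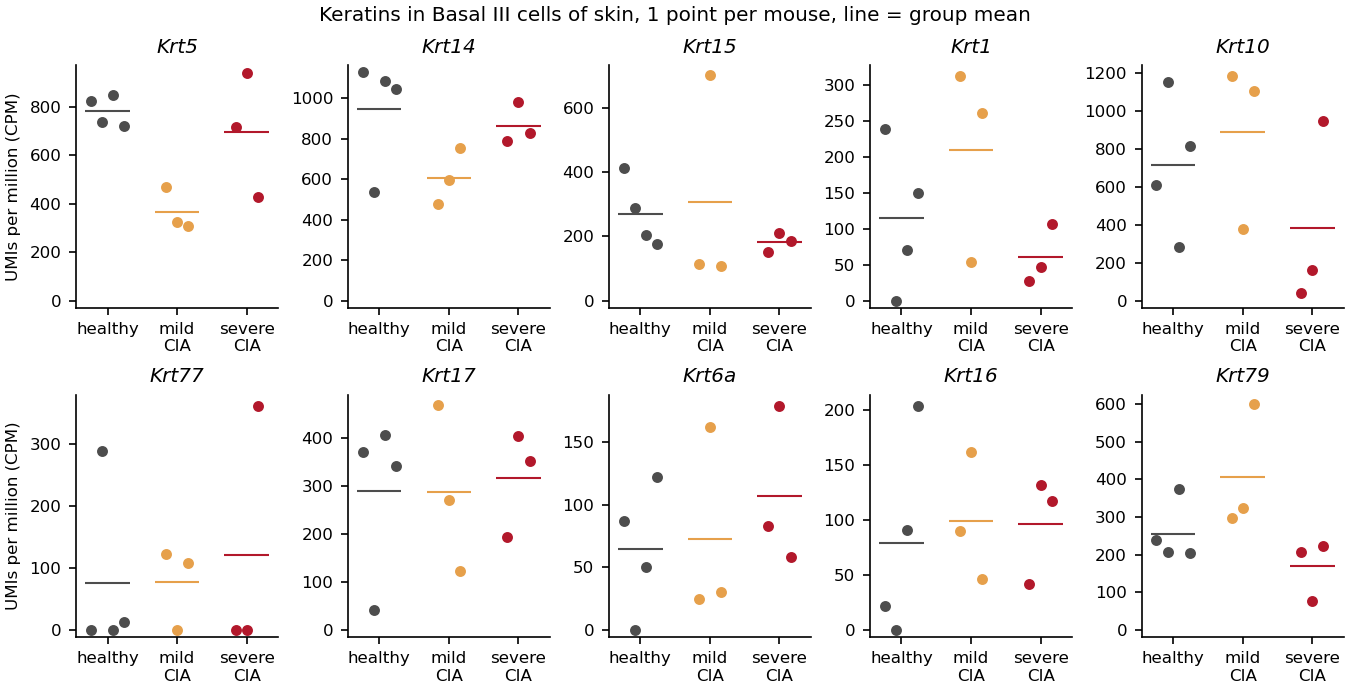
CPM of each keratin in skin Basal III cells (y axis, linear), 1 point per mouse for healthy, mild, and severe CIA mice, with a line at the group mean. *Krt5* was at 721 to 851 CPM in the healthy mice and at 307 to 468 in the mild mice, *Krt77* was carried by single mice, and the severe mice split widely in *Krt10*.

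Among the basal keratins, *Krt5*, the type II keratin of the layer, had 721 (H7), 740 (H4), 827 (H3), and 851 CPM (H6) in healthy skin Basal III cells. It had 307 (S8), 325 (S6), and 468 (S5) in mild and 429 (S3), 719 (S1), and 941 (S2) in severe mice. In all, 5 of the 6 CIA mice lay below every healthy mouse, and S2 lay above every healthy mouse. Of the 5, S1 (719 CPM) was nearly level with H7 (721). In edgeR's quasi-likelihood test over the 10 mice, the log2 fold change of *Krt5* in CIA was -0.52 (SE 0.29, adjusted p = 0.87). Within the mice of prefix CIA, which leave the mild mice against 3 healthy mice, it was -1.04 (SE 0.28, adjusted p = 0.572), and with the prefix as a term -0.77 (SE 0.28, adjusted p = 0.621). *Krt14*, the type I partner of *Krt5*, had 535 (H4), 1047 (H7), 1084 (H6), and 1131 CPM (H3) in healthy mice, 476 (S5), 595 (S6), and 753 (S8) in mild mice, and 788 (S1), 829 (S3), and 980 (S2) in severe mice. All CIA mice lay below 3 of the 4 healthy mice, but H4, with 13 UMIs of *Krt14*, lay below every CIA mouse except S5. Its log2 fold change was -0.39 (SE 0.25, adjusted p = 0.893 in the edgeR test), and -0.67 (SE 0.31, adjusted p = 0.614) within prefix CIA. *Krt15*, a basal keratin linked with follicle stem cells, had 177 (H7), 203 (H6), 288 (H4), and 413 CPM (H3) in healthy mice, 108 (S8), 115 (S5), and 703 (S6) in mild mice, and 152 (S1), 185 (S3), and 210 (S2) in severe mice. S6 stood far above the rest on 13 UMIs, and without it both groups still overlapped. The log2 fold change of *Krt15* was -0.42 (SE 0.43, adjusted p = 0.956).

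Among the suprabasal keratins, *Krt10*, the type I keratin of differentiating cells, varied widely, with 284 (H6), 609 (H3), 816 (H7), and 1152 CPM (H4) in healthy mice. Mild mice had 379 (S6), 1107 (S8), and 1183 (S5), and severe mice 41.5 (S1), 163 (S2), and 946 (S3). The groups overlapped fully, and the log2 fold change in CIA was -0.07 (SE 0.59, adjusted p = 1.00 in the edgeR test). Its type II partner *Krt1* had 0 (H4), 70.9 (H6), 150 (H7), and 239 CPM (H3) in healthy mice, 54.1 (S6), 261 (S8), and 312 (S5) in mild mice, and 27.7 (S1), 46.7 (S2), and 107 (S3) in severe mice. H4 was thus at the top of the healthy mice in *Krt10* and without a UMI of *Krt1*. The log2 fold change of *Krt1* was 0.24 (SE 0.64, adjusted p = 0.982), and 1.44 (SE 0.59, adjusted p = 0.572) within prefix CIA. *Krt77* had no UMI in 5 of the 10 mice (H3, H6, S1, S2, and S6) and 1 UMI in H7. H4 had 7 UMIs (288 CPM), S8 7 (108), S5 15 (123), and S3 37 (361), so 4 mice held 66 of its 67 UMIs. The filter on low counts removed *Krt77*, and in a fit without the filter its log2 fold change was 1.70 (SE 0.58, adjusted p = 0.695 in the edgeR test). That value was 0.56 (adjusted p = 0.759) without S3 and 4.24 (SE 0.87, adjusted p = 0.002) without H4, so single mice decided whether it passed.

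Among the stress and follicle keratins, *Krt17* had 41.1 (H4), 340 (H7), 370 (H3), and 405 CPM (H6) in healthy mice, 123 (S8), 270 (S6), and 468 (S5) in mild mice, and 194 (S1), 351 (S3), and 404 (S2) in severe mice. The value of H4 was 1 UMI, and the groups overlapped, with a log2 fold change of -0.02 (SE 0.39, adjusted p = 1.00 in the edgeR test). *Krt6a* had 0 to 122 CPM in healthy mice (median 68.8, 18 UMIs) and 24.6 to 179 in CIA mice (median 70.7, 43 UMIs). *Krt16* had 0 to 204 CPM in healthy mice (median 56.5, 25 UMIs) and 41.5 to 162 in CIA mice (median 104, 49 UMIs). H4 was at 0 in both, and the ranges of healthy and CIA mice overlapped. Neither passed the filter, and without it the log2 fold changes were 0.31 (SE 0.52) for *Krt6a* and 0.07 (SE 0.48) for *Krt16*. *Krt79* had 204 (H7), 206 (H4), 239 (H3), and 375 CPM (H6) in healthy mice, 296 (S5), 325 (S6), and 599 (S8) in mild mice, and 77.8 (S2), 207 (S1), and 224 (S3) in severe mice. S8 lay above and S2 below every healthy mouse, the others lay among them, and the log2 fold change in CIA was 0.03 (SE 0.43, adjusted p = 1.00).

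Of the 7 members that passed the filter, 0 were called in CIA against healthy Basal III cells at an adjusted p below 0.05, and the edgeR test called 0.0% of the 1280 genes. At an unadjusted p below 0.05 it found 0 of the 7 members and 71 genes (5.55%), and DESeq2 called 0 genes, members included, with 168 at an unadjusted p below 0.05. The members' median log2 fold change was -0.07, against 0.01 over all genes tested, with 2 above and 5 below 0. *Krt77*, *Krt6a*, and *Krt16* were not tested in that fit over the 10 mice without the prefix. Within prefix CIA the other values were -0.11 (SE 0.62) for *Krt15*, 0.45 (SE 0.47) for *Krt10*, -0.02 (SE 0.55) for *Krt17*, and 0.54 (SE 0.40) for *Krt79*, and prefix 2CIA, with 1 healthy mouse, was not fitted alone. There, 2 of 7 members and 94 of 1162 genes had an unadjusted p below 0.05 in the edgeR test. With the prefix as a term, 2 of 10 members and 139 of 1761 genes did. Neither fit called a gene. In the fit without the filter, which called 0.0818% of 18338 genes, 0 of the 10 members were called, and the median of all genes was 0.21. Genes that act beside the keratins were also not called. Of 12 basal adhesion and identity genes, 4 were tested, with *Sfn* at -0.70 (SE 0.25, adjusted p = 0.692), *Col17a1*, a hemidesmosome collagen, at -0.30 (SE 0.36), and the integrin *Itga6* at 0.64 (SE 0.45) on the log2 scale. Of 14 suprabasal differentiation genes, 7 were tested, 3 above and 4 below 0, 3 of them had an unadjusted p below 0.05, and *Krtdap* had the lowest (log2 fold change -1.05, SE 0.31, adjusted p = 0.692 in the edgeR test). Of 14 stress and wound genes 4 were tested, with *Hbegf*, an EGF receptor ligand, at 0.03, the envelope protein gene *Sprr1a* at 0.51, and the AP-1 factor *Fosl1* at -0.72. Of 12 follicle and sebaceous genes 6 were tested, with *Mgst1* at 0.30, *Scd1* at 0.02, and the follicle factor *Sox9* at 0.80. Each of the basal, stress, and follicle lists had 1 gene at an unadjusted p below 0.05. None of 10 cornified envelope genes passed the filter, although 9 had a UMI in these cells, led by the protease inhibitor gene *Spink5* with 75. Of 39 other numbered keratins, 23 had UMIs in these cells (289 in all, led by *Krt2* with 71, *Krt18* with 43, and *Krt25* with 42), and none passed the filter. They include 3 of 4 simple epithelial keratins and 7 of 13 keratins of the inner root sheath and hair shaft.

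Severe and mild CIA mice were compared as a contrast within the fit over all 10 mice. *Krt1*, *Krt79*, and *Krt5* had unadjusted p-values below 0.05, but no member passed the adjusted threshold, and severity cannot be told apart from the sample prefix here. *Krt1* had 27.7 to 107 CPM in severe and 54.1 to 312 in mild mice, a log2 fold change of -1.95 (SE 0.61, adjusted p = 0.358 in the edgeR test), and the groups overlapped through S6. *Krt79* was at 77.8 to 224 CPM in severe and 296 to 599 in mild mice with no overlap, a log2 fold change of -1.28 (SE 0.42, adjusted p = 0.398). *Krt5* differed in the other direction, with 429 to 941 CPM in severe and 307 to 468 in mild mice, a log2 fold change of 0.90 (SE 0.32, adjusted p = 0.452). Its groups overlapped, as S3 lay below S5. *Krt14*, like *Krt79*, did not overlap (788 to 980 against 476 to 753 CPM), with a log2 fold change of 0.56 (SE 0.30, adjusted p = 0.668). *Krt10* differed by -1.26 (SE 0.66, adjusted p = 0.668), and by -3.02 (SE 0.61, adjusted p = 0.0487) without S3, the only severe mouse with high *Krt10*. *Krt15* (-0.13, SE 0.58) and *Krt17* (0.11, SE 0.49) differed by less than their errors. The test called 0.404% of 1486 genes and 0 of the 7 members tested, and 7.81% of genes and 3 members had an unadjusted p below 0.05. The 6 genes called were *Dqx1*, *BC100530*, and *Ptgs2*, the gene of an inducible prostaglandin synthase (log2 fold change 2.94, SE 0.61, adjusted p = 0.0408), all higher in severe mice, and the beta-defensins *Defb5*, *Defb7*, and *Defb8*, all lower. *BC100530* and *Ptgs2* are also among the study's markers that helped to name these cells. Without S2 or without S5, 0 genes were called, and without S6, 3. Among follicle and sebaceous genes, 2 of 6 tested lay above and 4 below 0 (median -0.86 against 0.01 for all genes). In the edgeR test 3 had an unadjusted p below 0.05, and they went in both directions. They were *Mgst1* at -0.83 (SE 0.26, adjusted p = 0.356), *Dcn* at -0.94 (SE 0.44, adjusted p = 0.633), and *Fst* at 1.58 (SE 0.57, adjusted p = 0.452). *Scd1* at -0.88 (SE 0.50) and *Sox9* at 0.25 (SE 0.34) were not among them.

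Expressed as shares of the members' own UMIs, the keratins of skin Basal III cells ranged from mostly basal to mostly suprabasal. *Krt5*, *Krt14*, and *Krt15* made up 29.8% (S5) to 73.6% (S1) of the members' UMIs in a mouse, and *Krt1*, *Krt10*, and *Krt77* made up 3.07% (S1) to 45.5% (S5). In healthy mice the suprabasal share was 10.4% (H6), 21.5% (H3), 25.8% (H7), and 44.3% (H4), in mild mice 14.5% (S6), 42.9% (S8), and 45.5% (S5), and in severe mice 3.07% (S1), 6.7% (S2), and 39.2% (S3). Every condition thus held mice with a low and mice with a high suprabasal share. The ratio of *Krt10* to *Krt14* UMIs ran from 0.0526 in S1 to 2.48 in S5, with 0.262 to 2.15 in healthy mice. Type I members held 54.0% to 70.9% of the members' UMIs in a mouse and 63.5% in the pooled cells, against 5 genes of each type. In bulk sums of this kind, fewer cells of a type and less RNA per cell cannot be told apart.

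**Figure D3:**
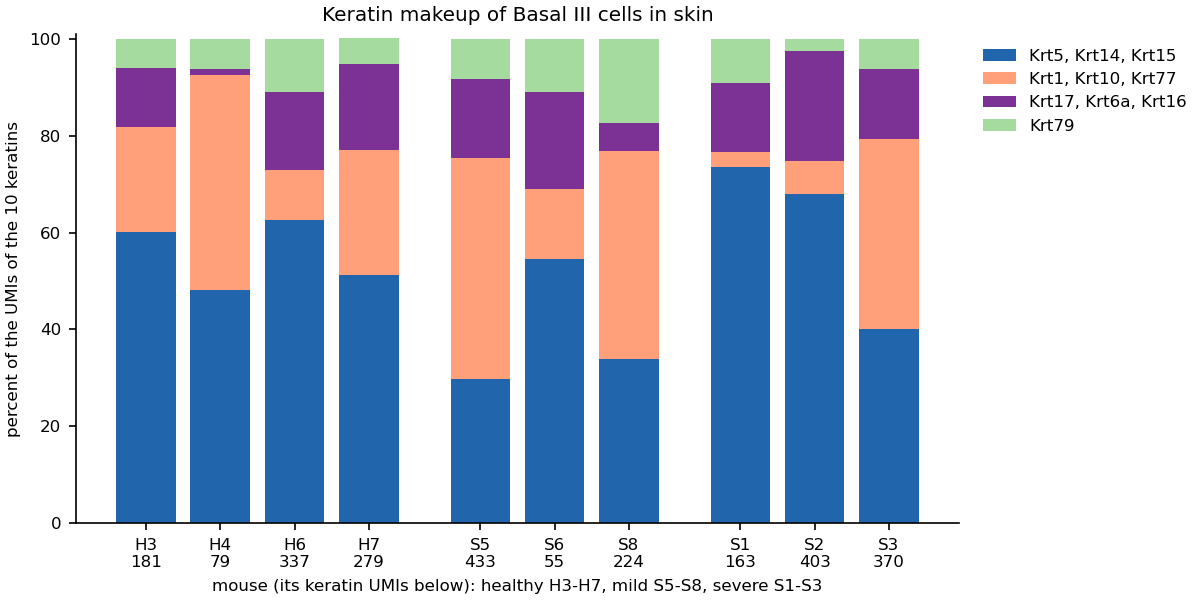
Share of the 10 keratins' UMIs (y axis, percent) that belonged to basal, suprabasal, and stress keratins and to *Krt79* in skin Basal III cells of each mouse, with the mouse's keratin UMIs under its name. The suprabasal share was 3.07% in S1 and 45.5% in S5, and each condition held mice with a low and with a high share.

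In single cells *Krt10* was concentrated in fewer cells than *Krt14* and *Krt5*, while *Krt15* was seen in 92 cells. *Krt1* (104 UMIs in 48 cells) and *Krt77* (67 UMIs in 24 cells) were seen in fewer cells too, but they also had fewer UMIs. Cells with at least 5 UMIs of the gene held 45.2% of the *Krt1*, 29.9% of the *Krt77*, and 28.2% of the *Krt5* UMIs. A skin Basal III cell had a median of 2 member UMIs and at most 48, and 156 of the 711 cells had none. *Krt14* was seen in 319 cells, and the 19 cells with at least 5 UMIs of it held 23.8% of its UMIs. *Krt10* was seen in 119 cells, and the 31 cells with at least 5 held 70.7%. Cells with *Krt10* (119 cells, median 928 UMIs in all) held 84.6% of the *Krt1* UMIs and 91.0% of the *Krt77* UMIs, but 21.7% of the *Krt14* and 5.08% of the *Krt79* UMIs, while the other cells had a median of 777 UMIs. *Krt14* and *Krt5* were seen together in 146 cells, which is 45.8% of the cells with *Krt14* and 60.6% of those with *Krt5*. Cells with at least 2 UMIs of *Krt10* (57 cells) had 14865 CPM of *Krtdap* against 2070 in the other Basal III cells, 772 against 27.8 CPM of *Krt2*, another suprabasal keratin, and 193 against 1591 CPM of *Scd1*. The 36 cells with at least 2 UMIs of *Krt79* showed the reverse, with 6505 against 864 CPM of *Scd1*, 8902 against 2202 of *Mgst1*, and 449 against 3547 of *Krtdap*, and they had more UMIs in all (median 1988 against 770). *Krt15* cells (29 with at least 2 UMIs) had 488 against 98.2 CPM of *Postn*, the gene of a matrix protein, and 848 against 171 of the defensin gene *Defb6*. *Krt17* cells (62) had 173 against 1634 CPM of *Scd1* and 520 against 269 of *Fst*, the gene of follistatin. These traits were not particular to 1 keratin. Low *Scd1* was also found in *Krt15* cells (128 against 1538 CPM) and *Krt16* cells (70.4 against 1492). *Krt16* cells, of which there were 9, also had more *Fst* (493 against 294), and *Krt79* cells more *Defb6* (699 against 147). The companion genes were chosen after their values were seen, and these are descriptions of cells that share arrays and mice, without a test.

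To compare labels at equal depth, every skin cell was thinned to 400 UMIs. Of the thinned Basal III cells 61.3% (95% Wilson interval 57.7 to 64.8) had a member UMI, against 9.26% of fibroblasts, 3.45% of macrophages, 5.0% of endothelial cells, and 9.68% of T cells. Before thinning the shares were 78.1% of Basal III cells (median 797 UMIs), 16.0% of fibroblasts (694), 5.17% of macrophages (593), 5.0% of endothelial cells (706), and 16.1% of T cells (558). The share in fibroblasts lay within the interval of the 31 T cells (3.35 to 24.9), a cell type that should lack these keratins, and was not distinguishable from it at this depth. The 156 skin cells without a label had a share of 44.2% (36.7 to 52.1) after thinning and 383 member UMIs, at 2958 CPM against 3359 in Basal III cells, so they held keratin-rich cells that the comparisons by label leave out.

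Summed over all annotated skin cells, no member was called. *Krt5* had 377 to 582 CPM in healthy and 216 to 550 in CIA mice (log2 fold change -0.38, SE 0.27, adjusted p = 0.813 in the edgeR test), and *Krt10* had 187 to 628 and 24.7 to 1009 CPM (0.16, SE 0.65). Of the 8 members tested, 0 were called, as were 0.0% of 2180 genes, while 160 genes had an unadjusted p below 0.05 and DESeq2 called 6 genes and 0 members. *Krt6a* and *Krt77* did not pass the filter.

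Skin fibroblasts held 120 member UMIs in 52 of 324 cells, and most of these UMIs lay in very few cells. Per mouse, fibroblasts had 99.4 (H6), 264 (H3), 502 (H7), and 532 CPM (H4) of all members in healthy mice, 253 (S8), 358 (S6), and 445 (S5) in mild mice, and 98.6 (S1), 573 (S2), and 893 (S3) in severe mice. The groups overlapped, and S6 rested on 8 cells with 2 member UMIs. Together, 5 cells with at least 3 member UMIs held 64 of the 120. A cell of S2 alone had 35, with 11 of *Krt16*, 9 of *Krt14*, 6 of *Krt6a*, and 5 of *Krt5*, and it held all 6 *Krt6a* UMIs of fibroblasts. A cell of S3 had 9, with 4 of *Krt17*, a cell of H7 had 6, and a cell of S5 had 3. These 4 cells had no UMI of the collagens *Col1a2* and *Col3a1* or of *Sparc* and between 0 and 2 UMIs of all 8 fibroblast markers, but 3 to 19 UMIs of *Lgals7*, so the keratinocyte genes in them went against their label. The fifth, from H4, had 11 member UMIs (7 of *Krt10*), 28 of collagens and *Sparc*, and 25 of *Lgals7*, so it carried genes of both types. The 79 fibroblasts without a UMI of *Col1a2*, *Col3a1*, or *Sparc* had 885 CPM of members (69 UMIs), against 228 CPM (51 UMIs) in the 245 with such a UMI. The 4 cells above, with 35, 9, 6, and 3 member UMIs, are among the 79 and held most of their 69. The contrast therefore largely counts these 4 cells again. In skin, 1 fibroblast shared its barcode with a cell of another library.

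**Figure D4:**
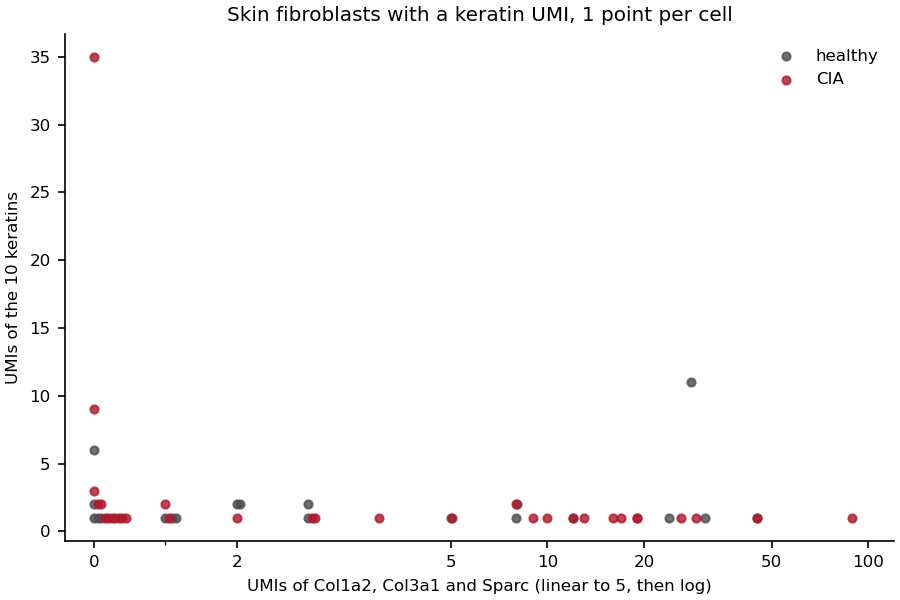
Member UMIs (y axis, linear) against UMIs of *Col1a2*, *Col3a1*, and *Sparc* (x axis, linear to 5 and log beyond) in the 52 skin fibroblasts with a keratin UMI, 1 point per cell (grey healthy, red CIA), with cells of equal values shifted slightly to the right. Of the 5 cells with at least 3 keratin UMIs, 4 sit at 0 collagen and *Sparc* UMIs, among them the cell with 35.

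By gene, *Krt14* had 14 UMIs in healthy and 19 in CIA fibroblasts, *Krt5* 6 and 14, *Krt10* 11 and 6, *Krt16* 1 and 14, *Krt17* 0 and 10, and *Krt6a* 0 and 6. *Krt17* was found in 4 of 6 CIA mice (1 UMI each in S2, S5, and S8, and 7 in S3) and in no healthy mouse. A count of 0 over the healthy group allows 3 UMIs, or 25.1 CPM. The observed CIA levels of *Krt17* (55.0 CPM) and *Krt6a* (33.0 CPM) were 2.19-fold and 1.31-fold that value. These ratios leave out the counting error of the CIA counts, so they are no lower bounds. All 6 *Krt6a* UMIs also lay in a single cell of S2. The ratios rested on single mice: without S3, *Krt17* had 3 UMIs (18.4 CPM), below the 25.1 CPM, and without S2, *Krt6a* had none. The edgeR fit used 9 mice, since S6 had under 10 fibroblasts, and no member passed its filter, in which 0 of 349 genes were called, 31 had an unadjusted p below 0.05, and DESeq2 called 1 gene and 0 members. Without the filter the fitted log2 values were 4.20 for *Krt17* (SE 1.42), 3.20 for *Krt6a* (SE 1.51), and 2.73 for *Krt16* (SE 1.14), each with an adjusted p of 0.575 in the edgeR test. For *Krt17* and *Krt6a* these are no estimate of size, as they rest on a group at 0. That fit called 0.0766% of 15661 genes and 0 members, and 3 of the 10 members against 2.36% of genes were higher in CIA at an unadjusted p below 0.05. Without S2, *Krt6a* had no UMI and *Krt16* was at 0.94 (SE 1.52), and without S3, *Krt17* was at 2.77 (SE 1.62). With fibroblasts that had a UMI of *Col1a2*, *Col3a1*, or *Sparc* alone, *Krt17* was at 2.10 (SE 1.48), *Krt16* at -1.61 (SE 1.21), and *Krt6a* had no UMI. Whether the disease effect differed between fibroblasts and Basal III cells of the same mice was tested as an interaction with the mouse as a block, in which 0 of 8 members and 0.148% of 1351 genes were called. Among members *Krt17* had the largest value there, 4.90 on the log2 scale (SE 1.90, adjusted p = 0.783), and it too rests on the healthy fibroblasts at 0.

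In joint the members were found in a small set of cells labelled Basal III, and most of these came from healthy mouse H4. H4 had 31 Basal III cells among 159 annotated cells (19.5%, Wilson interval 14.1 to 26.3), S1 12 of 605 (1.98%, 1.14 to 3.43), H3 4 of 173 (2.31%, 0.903 to 5.79), S5 2 of 955 (0.209%, 0.0575 to 0.76), and H7 1 of 72 (1.39%, 0.246 to 7.46). S3, S6, and S8 had none among 126, 57, and 83 cells. Of the cells of H4, 4 shared their barcodes with muscle cells of H3 that also had the label Basal III. Without them H4 had 27 Basal III cells with 220 member UMIs (7715 CPM) in place of 31 cells with 280 (6937 CPM), and the muscle of H3 held all 17 member UMIs of the 6 Basal III cells of muscle in cells with such barcodes.

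**Figure D5:**
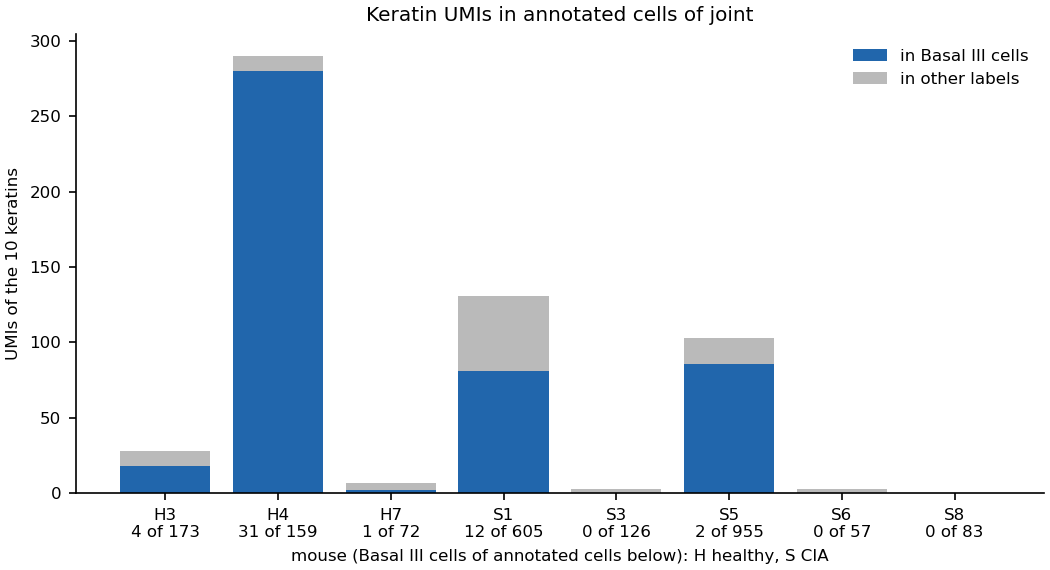
UMIs of the 10 keratins in annotated joint cells (y axis, linear from 0) of each mouse, split into Basal III cells and other labels, with the number of Basal III cells of all annotated cells under each name. H4 had 290 UMIs, of which 280 lay in Basal III cells, and S8 had none.

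The keratins of the 50 joint Basal III cells leaned to the basal side, although S5 differed. Pooled levels were 2479 CPM of *Krt14*, 1744 of *Krt5*, 735 of *Krt17*, 620 of *Krt15*, 533 of *Krt10*, 259 of *Krt1*, 216 of *Krt16*, and 115 of *Krt6a*. *Krt79* had 2 UMIs (28.8 CPM) and *Krt77* none, which allows up to 53.2 CPM by an exact 95% interval. *Krt5*, *Krt14*, and *Krt15* took 71.9% of the member UMIs, against 50.6% in skin Basal III cells, and 80.7% in healthy and 56.3% in CIA joints. In H4, which held most cells, *Krt14* had 116 UMIs (2874 CPM), *Krt5* 82 (2032), *Krt15* 29 (719), *Krt10* 25 (619), and *Krt17* 6 (149). The 12 cells of S1 had 1370 CPM of *Krt14*, 1159 of *Krt5*, 632 of *Krt10*, and 369 of *Krt17*. The 2 cells of S5 had 86 member UMIs, among them 33 of *Krt17* (5966 CPM), 23 of *Krt14* (4158), 6 of *Krt6a*, and 5 of *Krt16*, so the stress keratins took 51.2% there against 6.07% in H4 and 9.88% in S1, and with 2 cells this has no replicate. All 6 Basal III markers were detected in joint Basal III cells, *Krt14* in 80.0% of them, but *BC100530* had 3 UMIs and *Ptgs2* 5. All 4 granulocyte markers were also detected, with a summed level of 10725 CPM against 95.8 in skin Basal III cells, and 0 to 5251 CPM in healthy and 24227 to 28979 in CIA mice. *S100a8*, an inflammatory calcium-binding protein gene of granulocytes that activated keratinocytes also express, was found in 66.0% of the cells (7280 CPM), but also in 91.7% of joint fibroblasts (10387 CPM). The part of granulocyte RNA in these values was not tested.

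Over all annotated joint cells, *Krt14* had 13.9 (H7), 44.5 (H3), and 841 CPM (H4) in healthy mice, 0 (S6), 0 (S8), and 20.4 (S5) in mild mice, and 0 (S3) and 64.2 (S1) in severe mice. *Krt5* had 0 (H7), 27.8 (H3), and 591 CPM (H4) in healthy mice, 0 (S6), 0 (S8), and 11.0 (S5) in mild mice, and 8.09 (S3) and 45.4 (S1) in severe mice. H4 stood far above every other mouse, and S1 came next in both genes. No member passed the filter of the edgeR fit over the 8 mice. Without the filter, which called 0.141% of 24079 genes as lower in CIA, 3 members were called lower, *Krt14* (log2 fold change -3.29, SE 0.60, adjusted p = 5.3e-05), *Krt5* (-3.20, SE 0.62, adjusted p = 3.2e-04), and *Krt15* (-3.18, SE 0.77, adjusted p = 0.02). Without H4 the values were 0.07 for *Krt14*, 0.47 for *Krt5*, and -0.26 for *Krt15*, and without the Basal III cells they were -0.11, 0.99, and -0.06, none of them called, so the calls depended on H4 and on the cells labelled Basal III. DESeq2 called 37 genes and 0 members.

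Joint fibroblasts had 56 member UMIs in 603 cells (74.3 CPM), against 398 CPM in skin fibroblasts, and 29 of them were of *Krt10*. *Krt10* had 61.9 (H4), 63.3 (H3), and 77.6 CPM (H7) in healthy mice, 0 (S6), 0 (S8), and 31.9 (S5) in mild mice, and 29.1 (S3) and 32.6 (S1) in severe mice. The healthy mice lay above all CIA mice, on 3 or 4 UMIs each. No member passed the filter of the edgeR fit over 6 mice, which left out S6 and S8 with 9 and 4 fibroblasts, and without the filter the log2 fold change of *Krt10* was -0.66 (SE 0.83, adjusted p = 0.753). *Krt6a* and *Krt77* had no UMI in joint fibroblasts.

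Outside skin and joint, *Krt10* and *Krt79* accounted for most member UMIs, with 87 and 48 of 151. Of the *Krt79* UMIs, 44 lay in 36 of 677 lung macrophages (97.1 CPM, 95% counting interval 70.6 to 130), and all 10 mice had at least 1. Levels were 86.0 (H3), 130 (H7), 173 (H4), and 179 CPM (H6) in healthy mice, 28.1 (S6), 69.3 (S5), and 174 (S8) in mild mice, and 32.3 (S2), 34.3 (S1), and 105 (S3) in severe mice. Healthy and CIA mice overlapped, on 1 to 18 UMIs per mouse, and the difference was not tested. Of the other members, lung macrophages had 8 UMIs of *Krt10* and none of the rest. *Krt10* had 16.0 CPM in muscle myocytes (19 UMIs), 17.2 in muscle T cells (17), 18.3 in muscle fibroblasts (7), and 17.7 in lung macrophages (8), but 5.09 in spleen B cells and no UMI in 274 muscle macrophages. Muscle myocytes and muscle T cells had no UMI of *Krt14* or *Krt5*, so *Krt10* was found there without the basal keratins.

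Across the 28 pairs of organ and label with at least 50 cells, the genes whose log2(CPM + 10) followed *Krt14* most closely were *Krt5* (Pearson r = 0.980), *Krt17* (0.975), *Perp* (0.971), *Spink5* (0.967), and *Krt6a* (0.967). For *Krt17* they were *Krt6a* (0.989), *Serpinb5* (0.976), *Krt14* (0.975), *Lgals7* (0.970), and *Pkp1* (0.970). For *Krt10* the values were lower, with *Tfap2a* (0.923), *Abca12* (0.916), and *Trpv3* (0.912) among the 5 closest genes, and no other member was among them. The pairs share mice and libraries, and most had levels near 0 apart from the Basal III cells, so these values describe which genes share the cells of these keratins and carry no p.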

How the data were processed

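Seq-Well libraries of 48 samples from 10 mice were deposited as raw UMI counts per gene and cell. The authors aligned reads to GRCm38 with STAR, counted primary alignments with the Drop-Seq tools, and, per their methods, required 10000 reads, 400 transcripts, 200 genes, and under 20% mitochondrial genes per cell and removed cells above 6000 transcripts. The deposited table still held 16 cells above 6000 UMIs, which were kept. The submitters' processing notes also list GRCh38 and mm9, with no role given. Cell labels are the study's own annotation (12096 of 13240 cells), doublets were not removed here, and 0 columns were left unused. Counts were summed per mouse, organ, and label, using mice with at least 10 cells, and tested with edgeR 4.0.16 in R 4.3.3 (TMM, filterByExpr, quasi-likelihood test, Benjamini-Hochberg adjusted p below 0.05), with DESeq2 1.42.0 as an alternative. Members that failed the filter were also fitted with every gene of at least 1 UMI. Severe and mild mice were a contrast within the fit over 10 mice, and the comparison of fibroblasts with Basal III cells kept the mouse as a block. The scripts were tested on simulated data. Levels, thinned shares (400 UMIs per cell), and 95% intervals (exact Poisson for counts, Wilson for shares) were computed with scipy 1.17.1 and numpy 2.4.6 under Python 3.11.15, and figures were drawn with matplotlib 3.10.9. The intervals cover counting error only. Genes named were the 10 members, the 3 genes with most UMIs and any called in each gene list, the 3 other keratins with most UMIs, and the 5 genes most like Krt14, Krt10, and Krt17. Fst and Dcn were also named, for their unadjusted p in severe against mild. A few genes that this rule or the marker lists would name are not reported here. The members and lists were chosen with earlier results of these data known. Alternatives changed the normalization, filter, tool, cell minimum, mice, and covariates, and those that combined the unfiltered fit with left-out mice or cells were added after seeing the data.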

Additional observations from a re-analysis of the deposited data

Results flagged for a closer look

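In 26 groups of 4 to 6 mice tested for a mouse far from the others (Dixon's test on CPM), 5 held one. Chance flags about 1 in 20 independent groups, but these groups reuse the same mice for different genes. In healthy skin Basal III cells, H4 had 535 CPM of *Krt14* on 13 UMIs, against 1050 in the nearest mouse. In the same cells H4 had 288 CPM of *Krt77* on 7 UMIs, against 13.6 in the nearest healthy mouse. Among CIA mice, S6 had 703 CPM of *Krt15* on 13 UMIs, against 210 in the nearest mouse, and S3 had 361 CPM of *Krt77* on 37 UMIs, against 123. In annotated joint cells, S1 had 45.4 CPM of *Krt5* on 29 UMIs, against 11.0 in the nearest CIA mouse.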

How the results depend on the processing

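Over 266 alternatives of 22 values of single members, 229 kept their direction and side of the threshold, 6 lost a call (3 of them with a change of sign), 2 gained one, and 29 changed sign without a call either way. Without the filter on low counts, the edgeR test called 15 genes in skin Basal III cells for CIA against healthy (16 without H4 and 14 without S3) and 15 for severe against mild, 12 in skin fibroblasts (1 without S2 and 13 without S3), 32 in all annotated skin cells, 66 in joint (29 without H4 and 62 without Basal III cells), and 100 in joint fibroblasts. With only fibroblasts that had a collagen or Sparc UMI, 8 genes were called in skin. DESeq2 called 1 gene in skin fibroblasts, 6 in annotated skin cells, 37 in joint, and 56 in joint fibroblasts, where plain library sizes gave 8. Leaving out 1 mouse at a time gave 0 to 0 genes in skin Basal III cells and in skin fibroblasts, 0 to 6 in annotated skin cells (6 without S2), 1 to 2 for the difference between labels (1 without H7), 0 to 9 for severe against mild, 2 to 7 in joint (7 without S6), and 0 to 43 in joint fibroblasts (0 without H4 or H7, 43 without S3). For CIA against healthy Basal III cells, *Krt10* was at 0.45 within prefix CIA, 0.09 with the prefix as a term, and 0.10 without the filter, and *Krt17* at 0.10 without the filter. Leaving out 1 mouse moved *Krt10* from -0.40 to 0.19, *Krt1* from -0.08 to 0.66, *Krt17* from -0.25 to 0.14, and *Krt79* from -0.34 to 0.30. For severe against mild, *Krt15* was at 0.13 without the filter and ranged from -0.64 to 0.76, and *Krt17* from -0.27 to 1.03. In fibroblasts with a collagen or Sparc UMI, *Krt16* was at -1.61. In joint, *Krt5* was at 0.99 without Basal III cells and 0.47 without H4, and *Krt14* at 0.07 without H4. The causes were not tested. Depth limits *Krt6a*, *Krt16*, and *Krt77*, with 0 to 37 UMIs per mouse in skin Basal III cells.

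Replicate numbers are shared by different mice and were not used as pairs in the fits above. In skin Basal III cells the deviations of H3 and S3 correlated at 0.20 and those of H6 and S6 at -0.12. Mice of unlike numbers were not set beside them, and the mice of each pair also share a prefix. These values therefore cannot decide whether the numbers pair anything. With the replicate number as a block, 2 genes were called in skin Basal III cells, where *Krt15* was at 0.11, *Krt1* at -1.05, *Krt10* at 0.46, and *Krt79* at -0.27. In annotated skin cells 10 were called under that block, among them *Krt77* (log2 fold change 6.48, SE 1.62, adjusted p = 0.0283 in the edgeR test). Only H3 with S3 and H6 with S6 share a number in skin, so these mice alone carry the disease effect in such fits. Among them only S3 had *Krt77* in annotated cells (37 UMIs, 289 CPM), so that call rested on a single mouse. Without the mouse as a block, 0 genes were called for the difference between labels. The block could not be fitted in skin fibroblasts, where 1 number is shared.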
